A study of Caenorhabditis elegans with 15 samples.

Results

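The UDP-glucuronosyltransferase (ugt) family of Caenorhabditis elegans was followed through 5 diets. Its members were taken from the table of the whole series as the rows whose protein annotation names a C. elegans UGT with a number, together with H23N18.4, which the RefSeq annotation of the WBcel235 assembly calls ugt-67. The rule uses names only, no measured value, and found 55 of 16196 genes. All 55 carry the UDP-glucuronosyl and UDP-glucosyl transferase domain in the deposited annotation. A further 4 rows carry that domain under another name and were not counted as members. The reference lists 67 ugt genes, and the other 12 were not analysed here.

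UGTs are membrane enzymes of the endoplasmic reticulum. They move a sugar from a UDP-sugar donor onto a small lipophilic molecule, a hormone, a drug or a plant compound, which becomes more soluble and can be excreted. This is the conjugating phase of detoxification, which follows the oxidations made by cytochrome P450 enzymes and precedes export by efflux pumps. In nematodes the sugar passed on is mostly glucose, and in mammals resveratrol itself is conjugated by UGTs. For most worm members the substrate is not settled.

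RNA of whole wild-type worms at the L4 larval stage was sequenced in 15 libraries, 3 in each of 5 groups. The worms were of the N2 strain and were grown on plates seeded with Escherichia coli OP50. The sucrose group received 400 mM sucrose, and the stearic acid group stearic acid, a common saturated fatty acid, at 500 μg/mL. The sucrose-stearic acid group received both at those doses, and the resveratrol group both and also resveratrol, a plant polyphenol, at 500 μg/mL. These units are those of the study's RNA-seq methods, while the sample labels write 500 mg/ml for both additions and micromolar units for resveratrol stand elsewhere in the study, so the doses are uncertain. The control group received none of these additions. The study reports later egg laying at high sugar doses and slower growth where resveratrol was added to sucrose and stearic acid. Whether the groups had reached the same point of development when RNA was taken was not tested. Stearic acid was dissolved in ethanol and resveratrol in DMSO, and whether the control plates held these solvents is not given in the sources used here. The study calls the 3 libraries of a group biological replicates, and whether they came from separate cultures is not given in the sources used here, so the p-values measure the spread between these libraries.

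The 15 libraries held 19433436 to 21400063 counts each, and every one of the 55 members had at least 1 count in every library except ugt-15, which had 0 in resveratrol replicate 2. Replicates differed by more than sampling noise in every group, so none was counted as a duplicate. The check of the sucrose treatment was clear, since the 3 osmotic response genes found in the table (gpdh-1 and gpdh-2, which make glycerol, and the inositol transporter hmit-1.1) were called higher in sucrose and in sucrose-stearic acid worms. In stearic acid worms 0 of 3 were called. There 1 of 3 had an adjusted p of 0.05 or less in edgeR's test with a change under 2-fold, and all 3 log2 values were negative, down to -0.92. Markers of intestine, hypodermis, germline, sperm, oocyte and yolk were above 0 in every group.

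The whole family took 0.151% to 0.162% of all gene counts in sucrose worms, 0.213% to 0.252% in stearic acid worms, 0.138% to 0.145% in sucrose-stearic acid worms, 0.130% to 0.146% in resveratrol worms and 0.172% to 0.221% in control worms. Stearic acid worms thus held the largest share in 2 of 3 libraries, with their lowest library below the highest control library. The 3 groups that received sucrose lay below every control library. These are shares of the counts in whole worms, where fewer cells of a type and less RNA per cell cannot be told apart.

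**Figure D1:**
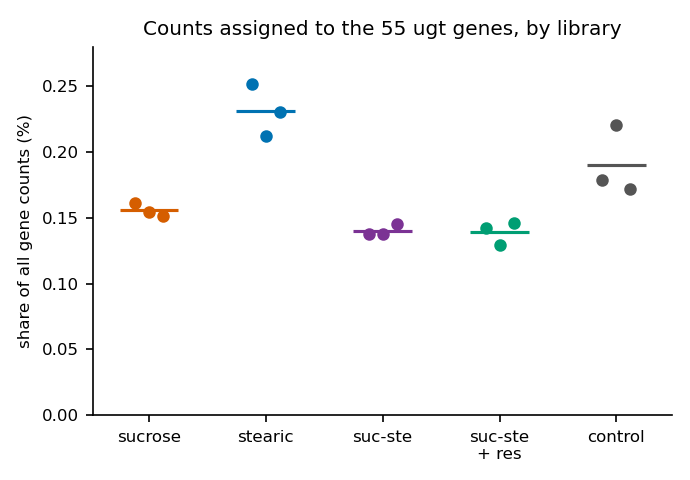
Share of all gene counts (%, y axis from 0) assigned to the 55 ugt genes in each of the 15 libraries, by group on the x axis (suc-ste: sucrose-stearic acid, + res: with resveratrol). Points are libraries and bars are group means, and every library that received sucrose lies below the lowest control library, at 0.172%.

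Levels are given as FPKM, which divides a gene's fragments by its length and by the library's mapped reads and so allows genes to be compared per length. In control worms the member means ran over a wide range, with a median of 16.02 FPKM, a highest of 126 FPKM (ugt-29) and a lowest of 0.442 FPKM (ugt-15). The 10 highest members held 53.6% of the summed FPKM of the family. They were ugt-29, ugt-22, ugt-19, ugt-62, ugt-58, ugt-31, ugt-44, ugt-13, ugt-12 and ugt-8, in that order, with group means between 126 and 52.7 FPKM. Neighbours in this order mostly lay within each other's spread. For example, ugt-22 had a mean of 88.2 ± 30.6 FPKM, ugt-19 one of 84.0 ± 18.2 FPKM and ugt-62 one of 76.4 ± 14.5 FPKM (SD, n = 3 each).

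The order was different in every other group. In stearic acid worms the highest member was ugt-31 with a mean of 249.8 FPKM, in sucrose and resveratrol worms it was ugt-44 with 110.3 and 90.5 FPKM, and in sucrose-stearic acid worms it was also ugt-44 with 82.7 FPKM. The median over the members was 16.8 FPKM in sucrose worms, 20.2 FPKM in stearic acid worms, 13.5 FPKM in sucrose-stearic acid worms, 13.02 FPKM in resveratrol worms and 16.02 FPKM in control worms. The highest group mean of a member fell in stearic acid worms for 25 of 55 members, in control worms for 10, in sucrose worms for 8, in sucrose-stearic acid worms for 7 and in resveratrol worms for 5.

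On the genome the family is clustered. Of the 55 members 34 lie on chromosome V, 11 on IV, 4 on I, 3 on X, 2 on III and 1 on II. In WBcel235 coordinates 28 members form 8 runs in which neighbouring members are at most 20 kb apart, and 27 stand alone. The largest run holds 7 members within 24.2 kb of chromosome V, in the order ugt-12, ugt-11, ugt-9, ugt-10, H23N18.4, ugt-8 and ugt-13. A second run on V holds ugt-5, ugt-4, ugt-6, ugt-18, ugt-16 and ugt-15, and another ugt-40, ugt-39, ugt-41 and ugt-36. The smaller runs are ugt-27, ugt-28 and ugt-25 on I, the pairs ugt-19 with ugt-20 and ugt-43 with ugt-44 on IV, and the pairs ugt-47 with ugt-17 and ugt-1 with ugt-2 on V. Because how reads of close copies were counted is not stated, values of neighbouring copies are uncertain, as are those of the 11 members whose exons overlap another annotated gene (among them ugt-10, ugt-21, ugt-22, ugt-25, ugt-35, ugt-40, ugt-47 and ugt-48).

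Differences between groups were tested on the counts with edgeR's quasi-likelihood test over all genes. A member is called where the Benjamini-Hochberg adjusted p was 0.05 or less and the change at least 2-fold. Fold changes are log2 ratios of counts, with their standard error (SE). The comparisons with control share the 3 control libraries, so likeness between them is not a separate result. Over the 8 tests 31 members were called at least once, and the share of all genes called at least once was not computed. With no fold minimum, 26 members passed with stearic acid against control, beside 22.6% of all genes, and 29 with sucrose-stearic acid, beside 19.9%. It was 30 in sucrose against stearic acid worms, beside 24.3%, 41 in sucrose-stearic acid against stearic acid worms, beside 34.1%, and 0 in sucrose-stearic acid against sucrose worms, beside 0.445%.

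Sucrose moved the family in both directions. Of 54 members tested 19 were called in sucrose worms (35.2%), 9 higher and 10 lower, beside 9.18% of all genes tested (3.78% higher and 5.4% lower). The median over the members was -0.04 and that over all genes -0.02 on the log2 scale, with members on both sides. The summed counts of the family were lower, as the share of counts given above shows. The largest increase was that of ugt-17 (chromosome V, 10102592 to 10104964). Its FPKM was 31.3, 31.1 and 31.8 in sucrose worms, against 4.76, 4.73 and 5.14 in control worms, with a log2 fold change of 2.68 (SE 0.14, adjusted p = 8.09e-06). The replicates agreed closely and the groups did not overlap. For ugt-53 (chromosome V, 2849343 to 2852028), FPKM was 17.5, 19.6 and 25.8 in sucrose worms, against 3.81, 4.52 and 3.25 in control worms, a log2 fold change of 2.48 (SE 0.22, adjusted p = 8.58e-05). For ugt-36 (chromosome V, 7167009 to 7169281), it was 8.62, 9.24 and 9.73 in sucrose worms, against 2.06, 3.16 and 1.31 in control worms, a log2 fold change of 2.11 (SE 0.29, adjusted p = 0.00112). Both genes were low in every control library. The other members called higher with sucrose were ugt-51, ugt-21, ugt-43, ugt-18, ugt-47 and ugt-40, with log2 fold changes between 1.01 and 1.61.

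The members that fell with sucrose included the most abundant one of control worms. For ugt-8 (chromosome V, 4903930 to 4905942), FPKM was 11.8, 9.44 and 8.23 in sucrose worms, against 56.6, 54.8 and 46.8 in control worms, a log2 fold change of -2.37 (SE 0.15, adjusted p = 1.80e-05). For ugt-20 (chromosome IV, 6080895 to 6083600), it was 7.07, 6.27 and 4.45 in sucrose worms, against 20.3, 31.1 and 28.3 in control worms, a log2 fold change of -2.17 (SE 0.22, adjusted p = 0.000208). In both genes every sucrose library lay under every control library by a wide margin. For ugt-9 (chromosome V, 4896048 to 4897969), it was 4.39, 4.22 and 3.88 in sucrose worms, against 18.3, 23.6 and 13.8 in control worms, a log2 fold change of -2.16 (SE 0.22, adjusted p = 0.000202). That most abundant member, ugt-29 (chromosome V, 696525 to 699156), had 36.9, 32.4 and 29.3 FPKM in sucrose worms, against 107, 137 and 136 FPKM in control worms, a log2 fold change of -1.95 (SE 0.13, adjusted p = 2.58e-05). Again no sucrose library reached a control library. The other members called lower were ugt-13, ugt-63, ugt-31, ugt-19, ugt-1 and ugt-28, with log2 fold changes between -1.95 and -1.13.

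Several calls near the thresholds turned on single libraries. In the sucrose comparison the call of ugt-19 was lost without control replicate 2, that of ugt-1 without control replicate 1 or 2, those of ugt-18 and ugt-40 without control replicate 3 or sucrose replicate 3 (that of ugt-40 also with other size factors, DESeq2 and limma, 6 of 13 alternatives in all), that of ugt-47 without control replicate 1 or 3 or sucrose replicate 2, and that of ugt-43 without control replicate 1 or 2 or sucrose replicate 3. The summed FPKM of the 7 intestine markers found in the table was 3236 to 3641 in sucrose worms and 4630 to 5863 in control worms. Most of this sum was asp-1, which averaged 2783 FPKM in sucrose worms and 4748 FPKM in control worms. The median log2 fold change of the 7 markers was -0.02, with 3 positive and 4 negative. The transporter pept-1 was called lower among them and the esterase ges-1 higher. The 18 rows named as sperm markers summed to 653 to 688 FPKM in sucrose worms and 771 to 1599 FPKM in control worms, and 4 of 18 were called lower. These 18 rows carry only 6 gene names, with msp-31 on most of them, so they are not 18 independent markers. Hypodermis and cuticle markers summed to 518 to 526 FPKM in sucrose worms and 333 to 415 FPKM in control worms, and yolk markers to 1736 to 1961 FPKM in sucrose worms and 728 to 1074 FPKM in control worms, without overlap. Germline and oocyte markers had lower means in sucrose worms, at 266 and 1753 FPKM, than in control worms, at 379.7 and 2422 FPKM. The part of these shifts in the family's changes was not tested.

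Stearic acid mostly raised members of the family. Of 55 members tested 12 were called in stearic acid worms (21.8%), 11 higher and 1 lower, beside 7.88% of all genes tested (3.41% higher and 4.48% lower). The median over the members was 0.28 and that over all genes -0.03. The largest change was that of ugt-36, with 16.8, 13.6 and 17.5 FPKM in stearic acid worms, against 2.06, 3.16 and 1.31 FPKM in control worms, a log2 fold change of 2.81 (SE 0.27, adjusted p = 2.38e-05). For ugt-51 (chromosome V, 5175020 to 5177309), FPKM was 21.5, 23.5 and 28.1 in stearic acid worms, against 8.66, 6.21 and 8.57 in control worms, a log2 fold change of 1.93 (SE 0.16, adjusted p = 5.02e-06). No library of either group overlapped the other for these 2 genes. The highest level of any member in any group was reached by ugt-31 (chromosome I, 2333298 to 2338693), with 247, 243 and 259.5 FPKM in stearic acid worms, against 58.5, 76.3 and 73.9 FPKM in control worms, a log2 fold change of 1.74 (SE 0.12, adjusted p = 1.77e-06).

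Lower levels were also raised. For ugt-32 (chromosome V, 3841794 to 3844007), FPKM was 8.83, 5.99 and 6.21 in stearic acid worms, against 2.29, 3.86 and 2.56 in control worms, a log2 fold change of 1.75 (SE 0.22, adjusted p = 0.000193). For ugt-41 (chromosome V, 7161068 to 7163595), it was 40.4, 42.0 and 55.3 in stearic acid worms, against 15.3, 16.8 and 15.99 in control worms, a log2 fold change of 1.34 (SE 0.16, adjusted p = 0.000107). In ugt-17 stearic acid gave 13.6, 11.5 and 16.2 FPKM, against 4.76, 4.73 and 5.14 FPKM in control worms, a log2 fold change of 1.38 (SE 0.18, adjusted p = 0.000226). In all 3 genes the groups were separate. The remaining members called higher were ugt-40, ugt-18, ugt-43, ugt-20 and ugt-27, between 1.08 and 1.30. The call of ugt-27 was lost without control replicate 3 and without any one of the stearic acid libraries. It was also lost with limma on log2(FPKM + 1) and on log2(FPKM + 0.1), 6 of 13 alternatives in all.

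Below the fold minimum, ugt-13 had 45.2, 37.6 and 49.2 FPKM in stearic acid worms, against 64.3, 75.6 and 61.3 FPKM in control worms, a log2 fold change of -0.67 (SE 0.14, adjusted p = 0.00641) without overlap. The single member called lower with stearic acid was ugt-22 (chromosome IV, 13639260 to 13644402), which has been linked to the worm's tolerance of the anthelmintic albendazole. It had 50.3, 41.6 and 42.3 FPKM in stearic acid worms, against 83.2, 121 and 60.4 FPKM in control worms, a log2 fold change of -1.07 (SE 0.21, adjusted p = 0.00446). The groups did not overlap, but the highest control library stood well above the other 2, and the call was lost without control replicate 2. It was also lost with limma on log2(FPKM + 1) and on log2(FPKM + 0.1), 3 of 13 alternatives in all. In stearic acid worms 10 of 18 sperm marker rows (6 gene names) were called lower. The summed FPKM of the intestine markers was 5169 to 6086 in stearic acid worms, against 4630 to 5863 in control worms. Most of that sum was asp-1, with means of 5104 and 4748 FPKM. The median log2 fold change of the 7 intestine markers was 0.02, with values from -1.52 to 1.32, and 1 was called higher and 1 lower. The summed sperm markers overlapped, at 716 to 1763 FPKM in stearic acid worms and 771 to 1599 FPKM in control worms, and 1 of them, spe-11, averaged 565 FPKM in stearic acid worms and 122 FPKM in control worms while its count-based log2 fold change was -0.05. Hypodermis and cuticle markers summed to 243 to 281 FPKM in stearic acid worms and 333 to 415 FPKM in control worms. Of 5 yolk markers 1 was called higher and 2 lower. Germline and oocyte sums lay below every control library. The part of these shifts in the family's changes was not tested.

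Both directions were also seen after co-treatment. Of 54 members tested 22 were called in sucrose-stearic acid worms against control (40.7%), 9 higher and 13 lower, beside 9.57% of all genes tested (4.31% higher and 5.26% lower). The median over the members was -0.22, beside -0.03 over all genes. For ugt-8, FPKM was 7.23, 6.25 and 7.49 in sucrose-stearic acid worms, against 56.6, 54.8 and 46.8 in control worms, a log2 fold change of -2.95 (SE 0.16, adjusted p = 3.18e-06). For ugt-13 of the same run (chromosome V, 4908884 to 4911399), it was 12.1, 11.8 and 11.6 in sucrose-stearic acid worms, against 64.3, 75.6 and 61.3 in control worms, a log2 fold change of -2.44 (SE 0.13, adjusted p = 2.74e-06). The co-treated libraries of both genes were close together and far below control. For ugt-29, it was 20.6, 20.8 and 23.1 in sucrose-stearic acid worms, against 107, 137 and 136 in control worms, a log2 fold change of -2.49 (SE 0.12, adjusted p = 1.99e-06). For ugt-9, it was 3.05, 2.84 and 4.18 in sucrose-stearic acid worms, against 18.3, 23.6 and 13.8 in control worms, a log2 fold change of -2.45 (SE 0.25, adjusted p = 0.000145). Neither gene had an overlapping library.

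In the other direction, ugt-17 had 35.6, 34.5 and 34.0 FPKM in sucrose-stearic acid worms, against 4.76, 4.73 and 5.14 FPKM in control worms, a log2 fold change of 2.89 (SE 0.13, adjusted p = 1.46e-06). Likewise ugt-53 had 26.2, 24.6 and 26.4 FPKM in sucrose-stearic acid worms, against 3.81, 4.52 and 3.25 FPKM in control worms, a log2 fold change of 2.79 (SE 0.18, adjusted p = 6.27e-06). These were the 2 largest increases of the family. The others called higher were ugt-36, ugt-51, ugt-4, ugt-40, ugt-21, ugt-47 and ugt-43, between 1.07 and 2.34, and the others called lower were ugt-20, ugt-19, ugt-31, ugt-63, ugt-1, ugt-35, ugt-33, ugt-22 and ugt-28, between -2.41 and -1.52. The call of ugt-33 was lost without sucrose-stearic acid replicate 1 or 2, and that of ugt-43 without control replicate 2 or sucrose-stearic acid replicate 1. Summed intestine markers lay at 4054 to 4451 FPKM in sucrose-stearic acid worms, against 4630 to 5863 FPKM in control worms. Most of that sum was asp-1, with means of 3591 and 4748 FPKM. The median log2 fold change of the 7 intestine markers was -0.15, with values from -1.86 to 1.61, and 1 was called higher and 1 lower. Hypodermis and cuticle markers summed to 546 to 711 FPKM in sucrose-stearic acid worms, against 333 to 415 FPKM in control worms, and oocyte markers to 1382 to 1730 FPKM in sucrose-stearic acid worms, against 1936 to 3377 FPKM in control worms. Sperm, germline and yolk sums overlapped. The part of these shifts was not tested.

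**Figure D2:**
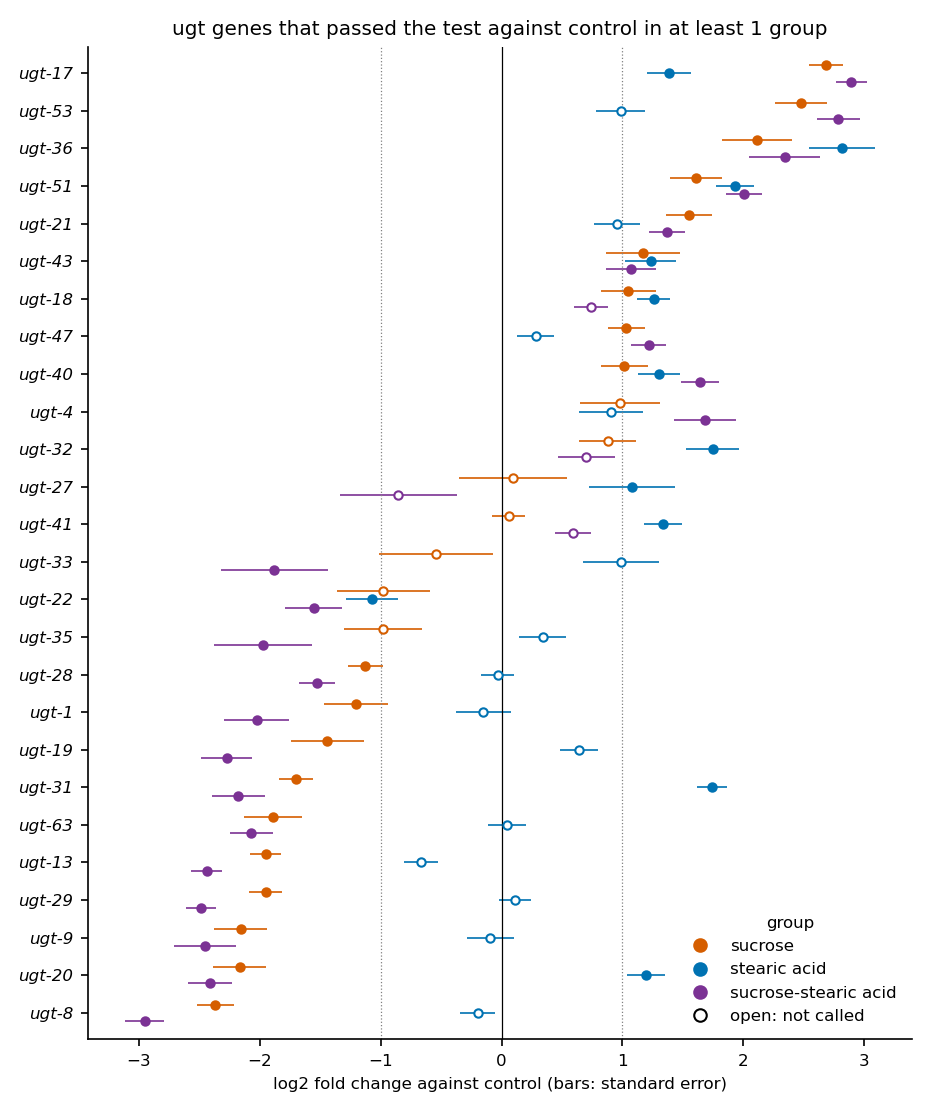
Log2 fold change against control (x axis, bars give the standard error, dotted lines mark 2-fold) of the 26 ugt genes that were called in at least 1 of the sucrose, stearic acid and sucrose-stearic acid comparisons, ordered by the sucrose value, with filled points for calls and open points for values that were not called. The 3 comparisons share the control libraries. In ugt-31 and ugt-20 stearic acid lies above 1 while both others lie below -1.

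The direct comparison of the single diets was set up to test their difference itself. Of 54 members 17 were called in sucrose against stearic acid worms (31.5%), 3 higher and 14 lower, beside 7.92% of all genes (2.63% higher and 5.29% lower). The widest differences were those of ugt-31 and ugt-20, each called lower with sucrose and higher with stearic acid. For ugt-31, FPKM was 21.5, 19.6 and 23.4 in sucrose worms, against 247, 243 and 259.5 in stearic acid worms, a log2 difference of -3.46 (SE 0.10, adjusted p = 3.38e-08). For ugt-20, it was 7.07, 6.27 and 4.45 in sucrose worms, against 66.1, 65.0 and 63.6 in stearic acid worms, a log2 difference of -3.38 (SE 0.15, adjusted p = 9.64e-07). The libraries of each group were within a narrow band. The others lower in sucrose worms were ugt-8, ugt-19, ugt-9, ugt-29, ugt-63, ugt-33, ugt-35, ugt-13, ugt-41, ugt-28, ugt-1 and ugt-27, between -2.19 and -1.001. The difference of ugt-1 was lost as a call without sucrose replicate 3 or stearic acid replicate 3, and that of ugt-27, at the fold minimum, in 7 of 13 alternatives, among them DESeq2, other size factors and leaving out sucrose replicate 1 or stearic acid replicate 1 or 2. Higher in sucrose worms were ugt-53 (1.47), ugt-17 (1.28) and ugt-46 (1.11), the last of which was called in no comparison with control.

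Sucrose added to stearic acid was tested next, against the same stearic acid libraries. Of 54 members 16 were called in sucrose-stearic acid against stearic acid worms (29.6%), 2 higher and 14 lower, beside 9.95% of all genes (3.75% higher and 6.2% lower). For ugt-31, FPKM was 10.5, 12.9 and 19.9 in sucrose-stearic acid worms, against 247, 243 and 259.5 in stearic acid worms, a log2 difference of -3.93 (SE 0.18, adjusted p = 2.10e-08), or 15.3-fold lower. For ugt-19 (chromosome IV, 6076686 to 6079952), it was 14.8, 13.9 and 22.2 in sucrose-stearic acid worms, against 149.9, 139.9 and 125 in stearic acid worms, a log2 difference of -2.93 (SE 0.16, adjusted p = 6.06e-08). Both genes were thus lower with sucrose and stearic acid together than with stearic acid only. In control worms ugt-19 was also high, at 66.5, 103 and 82.8 FPKM, and its stearic acid change against control (0.64) was not called. Its neighbour ugt-20 differed by -3.62, and the other members called lower were ugt-33, ugt-8, ugt-29, ugt-9, ugt-35, ugt-63, ugt-27, ugt-1, ugt-13, ugt-28 and ugt-32, between -2.87 and -1.06. The call of ugt-32 was lost without stearic acid replicate 1 or sucrose-stearic acid replicate 2. The 2 called higher were ugt-53 (1.79) and ugt-17 (1.50).

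Adding stearic acid to sucrose left no member past the thresholds. In sucrose-stearic acid against sucrose worms, edgeR's quasi-likelihood test called 0 of 54 members, beside 0.215% of all genes, and DESeq2 called 1. The number called by edgeR was 2 without sucrose replicate 3. At an unadjusted p of 0.05 or less in edgeR's test there were 16 of 54 members, beside 1619 of all 12582 genes tested. The intervals do not show that the groups were alike. For ugt-29 the log2 difference was -0.54 (95% interval -0.78 to -0.30), for ugt-8 it was -0.58 (-0.96 to -0.21), for ugt-40 it was 0.63 (0.32 to 0.94) and for ugt-33 it was -1.33 (-2.31 to -0.36).

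The interaction asked whether the co-treated change departs from the 2 single log2 changes added together, in the 12 libraries without resveratrol and at an adjusted p of 0.05 or less with no fold minimum. It was called for 18 of 55 members (32.7%), beside 15.6% of all genes tested (7.05% above the sum and 8.59% below it). All 18 members lay below the sum, and 0 above it. The median over the members was -0.42, beside -0.02 over all genes. The stearic acid change enters the interaction with a minus sign, so positive values with stearic acid go with negative interactions by construction. As a description, all 18 had a positive log2 fold change with stearic acid, as had 39 of all 55 members. For ugt-36 the sucrose, stearic acid and sucrose-stearic acid values were 2.11, 2.81 and 2.34, and FPKM in the co-treated worms was 9.50, 11.9 and 10.6, an interaction of -2.60 (SE 0.32, adjusted p = 0.000175). Here both single diets raised the gene and the combination raised it no further. For ugt-31 the same values were -1.70, 1.74 and -2.18, an interaction of -2.24 (SE 0.25, adjusted p = 7.95e-05). In this gene the stearic acid increase was not seen with sucrose present.

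Further members showed one or the other form. For ugt-33 (chromosome V, 10493407 to 10496477), FPKM was 11.2, 8.40 and 3.31 in sucrose worms, 25.8, 19.5 and 25.8 in stearic acid worms, 2.11, 2.31 and 4.46 in sucrose-stearic acid worms and 11.8, 16.4 and 5.06 in control worms, an interaction of -2.34 (SE 0.63, adjusted p = 0.0238). Its sucrose and control libraries overlapped, and the call was lost without sucrose replicate 2, stearic acid replicate 3 or sucrose-stearic acid replicate 1 or 2. For ugt-27 (chromosome I, 4724065 to 4726771), a gene near the lower end, FPKM was 1.04, 2.06 and 2.15 in sucrose worms, 3.45, 4.42 and 3.67 in stearic acid worms, 1.11, 1.20 and 0.550 in sucrose-stearic acid worms and 2.55, 2.12 and 0.664 in control worms, an interaction of -2.03 (SE 0.57, adjusted p = 0.0289). It was lost as a call when any one of 6 libraries was left out, which were sucrose replicates 2 and 3, all stearic acid replicates and sucrose-stearic acid replicate 3.

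The call of ugt-32 was kept whichever library was left out. Its FPKM was 2.73, 3.78 and 3.35 in sucrose worms, 8.83, 5.99 and 6.21 in stearic acid worms, 2.71, 3.90 and 3.47 in sucrose-stearic acid worms and 2.29, 3.86 and 2.56 in control worms, an interaction of -1.95 (SE 0.28, adjusted p = 0.000497). The size of this value is uncertain, and it ran from -2.07 to -1.02 over the alternatives. The sucrose change of ugt-32 was 0.88 by counts and 0.18 by mean FPKM, and its stearic acid change 1.75 and 1.27. For ugt-18 (chromosome V, 12820260 to 12822778), FPKM was 44.0, 50.3 and 79.4 in sucrose worms, 70.4, 65.3 and 76.5 in stearic acid worms, 44.4, 46.6 and 42.0 in sucrose-stearic acid worms and 29.6, 31.1 and 23.7 in control worms, an interaction of -1.58 (SE 0.26, adjusted p = 0.00111). In ugt-18 the co-treated libraries lay above control and below every stearic acid library. The remaining 12 were ugt-51, ugt-19, ugt-20, ugt-43, ugt-17, ugt-21, ugt-2, ugt-44, ugt-41, ugt-39, ugt-48 and ugt-29, between -1.55 and -0.68. Of these, ugt-2, ugt-39, ugt-44 and ugt-48 were called in no other test, and the calls of ugt-39, ugt-44 and ugt-48 were each lost under 13 of 19 alternatives. Sperm markers moved the other way in the same test, with 12 of 18 rows (6 gene names, mostly msp-31) above the sum. So did 3 of 7 hypodermis and cuticle markers. Of 7 intestine markers 1 was called above the sum and 2 below it, and of 5 yolk markers 2 were called, both below it. Germline and oocyte markers gave 0 calls. The part of these markers was not tested.

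**Figure D3:**
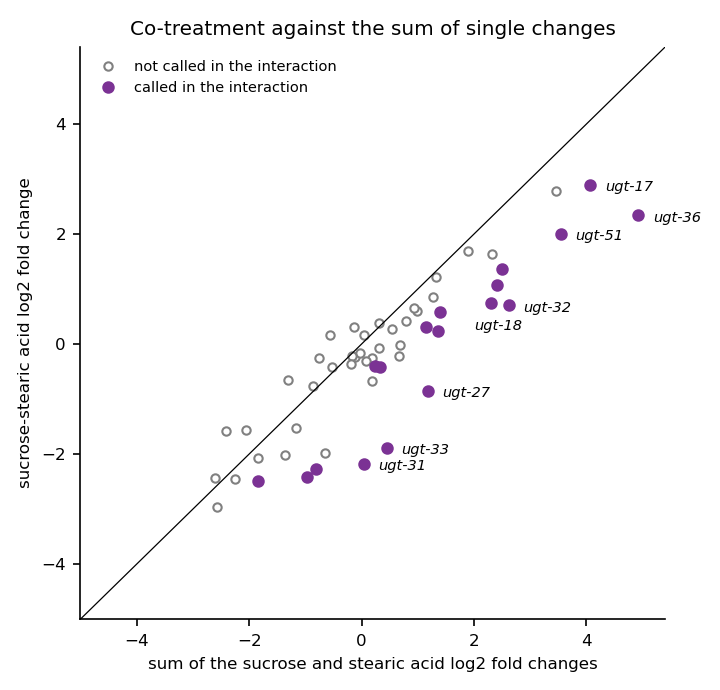
Log2 fold change of sucrose-stearic acid worms against control (y axis) against the sum of the sucrose and stearic acid log2 fold changes (x axis) for the 54 ugt genes with all values, with the line of equality. Both axes share the control libraries, so points follow the line in part for that reason, and the 18 filled points, called in the interaction, all lie below the line.

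**Figure D4:**
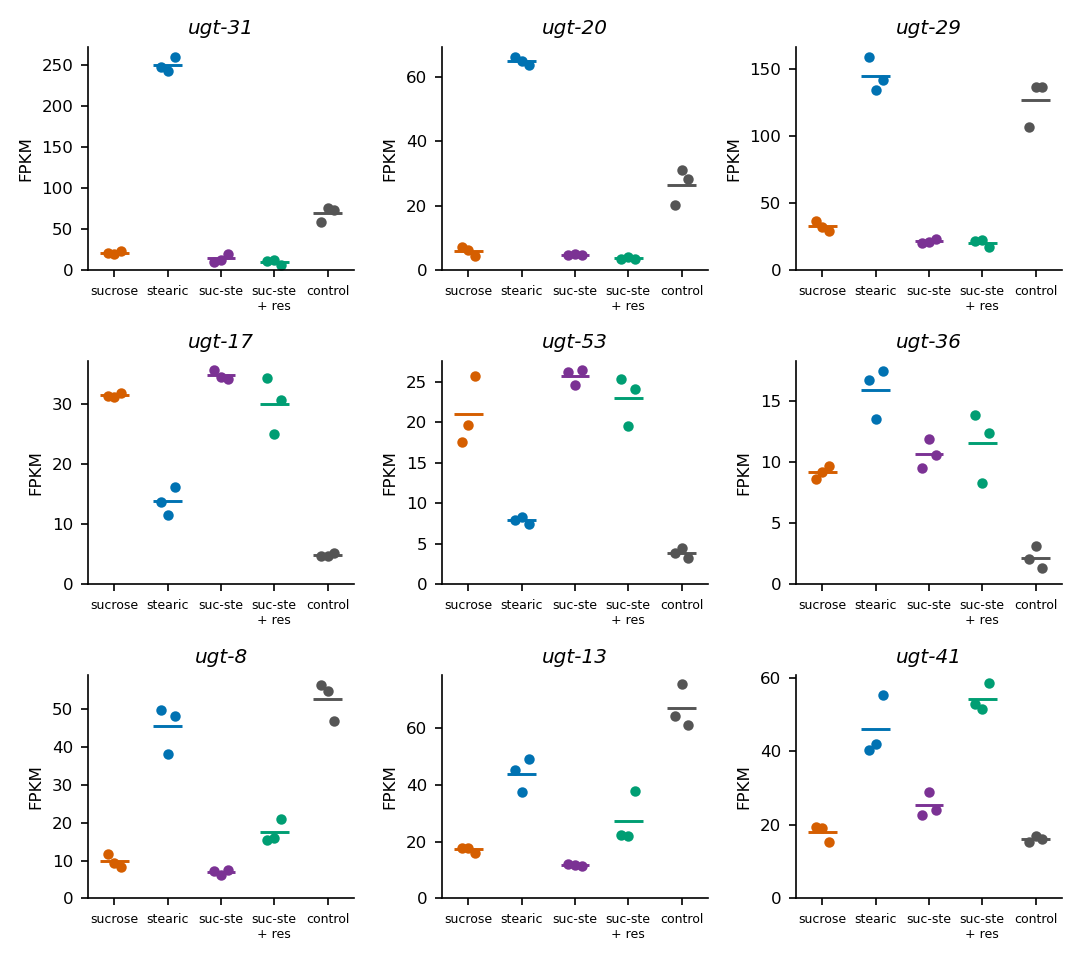
FPKM (y axes, from 0) of 9 ugt genes in each of the 15 libraries, by group on the x axis, with points for libraries and bars for group means. In ugt-31 and ugt-20 only the stearic acid libraries rise above control, in ugt-29, ugt-8 and ugt-13 the groups that received sucrose lie below it, as do the stearic acid libraries in ugt-13, and in ugt-17, ugt-53 and ugt-36 all treated groups lie above it.

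Resveratrol was set against the sucrose-stearic acid worms to which it was added. Of 54 members 1 was called (1.85%), beside 0.0159% of all genes, which is 2 genes in all. The called member was ugt-41, with 52.7, 51.5 and 58.5 FPKM in resveratrol worms, against 22.8, 28.96 and 24.0 FPKM in sucrose-stearic acid worms, a log2 fold change of 1.14 (SE 0.11, adjusted p = 0.0198). The groups did not overlap, and the resveratrol libraries also lay above control worms, which had 15.3, 16.8 and 15.99 FPKM. The call was lost without sucrose-stearic acid replicate 1 or 3 and without any one of the resveratrol libraries, where the adjusted p ran between 0.0577 and 0.151 while the log2 fold change stayed between 1.05 and 1.17.

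A further 4 members had a difference of at least 2-fold with an unadjusted p of 0.05 or less, as 0.278% of all genes did, and none of the 4 passed edgeR's adjusted test. Other settings called ugt-8 in 3 of 13 alternatives, with an adjusted p down to 2.29e-09 with DESeq2, and H23N18.4 in 1 of 13, with an adjusted p of 0.0492 with DESeq2. DESeq2 called 4 members in all, so ugt-41, ugt-8 and H23N18.4 were not the only ones called there. For the other members the alternatives with resveratrol were not recorded singly. FPKM of ugt-8 was 15.4, 15.9 and 21.0 in resveratrol worms, against 7.23, 6.25 and 7.49 in sucrose-stearic acid worms, with a log2 fold change of 1.29 (95% interval 0.91 to 1.67, adjusted p = 0.125). FPKM of ugt-13 was 22.3, 21.9 and 37.8 in resveratrol worms, against 12.1, 11.8 and 11.6 in sucrose-stearic acid worms, with a log2 fold change of 1.19 (95% interval 0.73 to 1.64, adjusted p = 0.332). Both genes were separate between the groups and both lay below every control library. FPKM of H23N18.4 (chromosome V, 4901374 to 4903272) was 1.83, 2.14 and 2.13 in resveratrol worms, against 0.910, 0.515 and 0.754 in sucrose-stearic acid worms, from 47, 53 and 53 counts against 22, 13 and 19 counts, with a log2 fold change of 1.50 (95% interval 0.90 to 2.09, adjusted p = 0.396). FPKM of ugt-35 (chromosome V, 10651995 to 10654265) was 3.11, 3.37 and 2.34 in resveratrol worms, against 3.57, 5.51 and 13.9 in sucrose-stearic acid worms, with a log2 fold change of -1.35 (95% interval -2.25 to -0.45, adjusted p = 0.999). In sucrose-stearic acid replicate 3 the value stood above the other two.

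The 3 members just named with positive values are the last 3 measured members of the largest run, where ugt-14, not analysed here, lies between ugt-8 and ugt-13. Along that run the sucrose values were -0.88 for ugt-12, 0.09 for ugt-11, -2.16 for ugt-9, -1.63 for ugt-10, -0.99 for H23N18.4, -2.37 for ugt-8 and -1.95 for ugt-13. The resveratrol values in the same order were -0.29, -0.14, 0.52, 0.89, 1.50, 1.29 and 1.19. The run was thus uneven, with 3 of 7 members called lower with sucrose (ugt-9, ugt-8 and ugt-13) and 0 of 7 called with stearic acid, with resveratrol or in the interaction. Of the 4 members from ugt-40 to ugt-36, 2 were called higher with sucrose (ugt-36, and ugt-40 at the fold minimum) and 3 with stearic acid (also ugt-41), while ugt-39, which lies between them, was at -0.16 with sucrose and 0.48 with stearic acid and was called in neither.

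**Figure D5:**
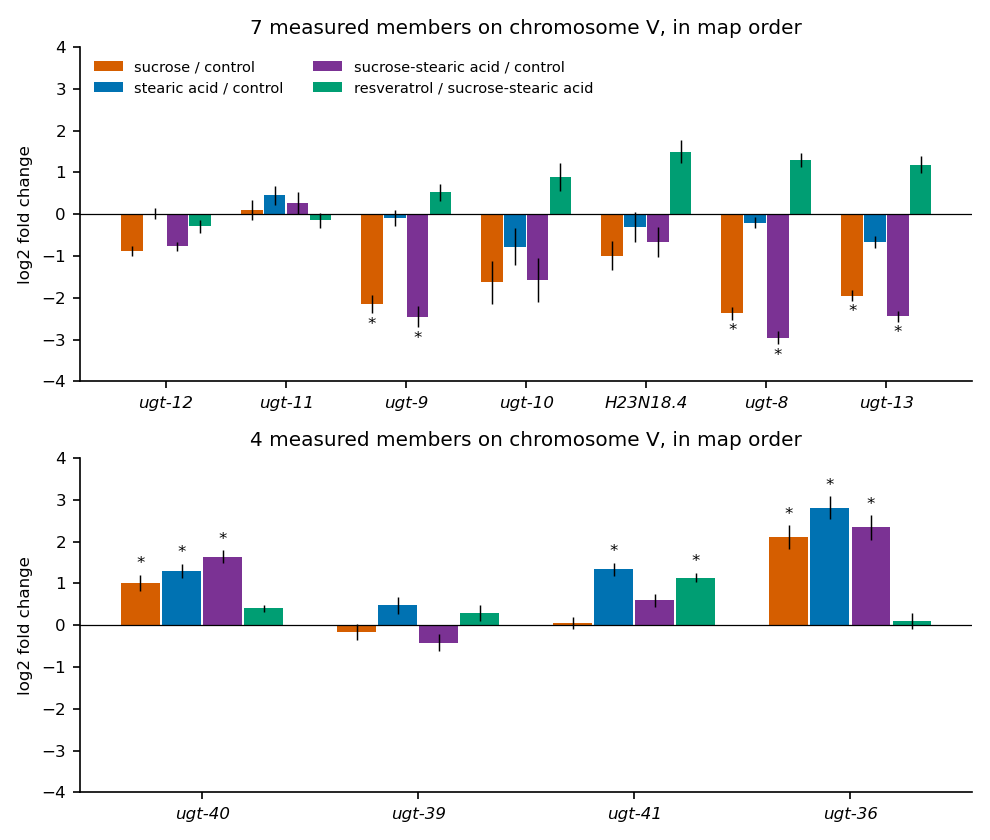
Log2 fold changes (y axis, bars with standard errors, asterisks mark calls) of the 7 measured members from ugt-12 to ugt-13 and the 4 from ugt-40 to ugt-36, in map order on the x axis, for sucrose, stearic acid and sucrose-stearic acid against control and for resveratrol against sucrose-stearic acid. In the larger run ugt-9, ugt-8 and ugt-13 fall with both sucrose diets, and ugt-41 is the only bar for resveratrol with an asterisk.

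Neighbours in smaller runs also differed. In the pair ugt-1 and ugt-2, the sucrose-stearic acid values against control were -2.02 and 0.24. In the run of ugt-27, ugt-28 and ugt-25, only ugt-28 was called lower with sucrose and only ugt-27 higher with stearic acid. The pair ugt-19 and ugt-20 moved together, both being called lower with sucrose and with sucrose-stearic acid, and their stearic acid values were 0.64 and 1.20, of which only that of ugt-20 was called. Differences between neighbours were not tested. Called members made up 48.1% of the 27 run members and 22.2% of the 27 lone members tested with sucrose, beside 9.18% of all genes. The shares were 28.6% of 28 and 14.8% of 27 with stearic acid, beside 7.88%, and 48.1% and 33.3% with sucrose-stearic acid, beside 9.57%. The difference between run and lone members was not tested.

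Of the 55 members 24 were called in none of the 8 tests, and they include abundant ones. Not being called at 2-fold is not the same as being constant, since 16 of the 24 had an adjusted p of 0.05 or less in at least 1 test, such as ugt-23 with sucrose (0.82, adjusted p = 0.00805). For these counts over all tests, the share of all genes was not computed. For ugt-58 (chromosome II, 9584384 to 9586784), FPKM was 70.4, 64.0 and 64.2 in sucrose worms, 65.4, 66.9 and 68.1 in stearic acid worms, 60.003, 64.4 and 53.9 in sucrose-stearic acid worms, 67.5, 53.05 and 69.9 in resveratrol worms and 70.8, 73.4 and 66.4 in control worms. Its log2 fold change against control was -0.07 with sucrose (95% interval -0.30 to 0.17) and -0.10 with stearic acid (-0.34 to 0.14), so that a 2-fold change lies outside both intervals. For ugt-62 (chromosome III, 4537281 to 4540623), FPKM was 144, 104 and 58.4 in sucrose worms, 110.3, 81.2 and 100.4 in stearic acid worms, 56.9, 57.3 and 73.0 in sucrose-stearic acid worms, 43.6, 50.4 and 38.6 in resveratrol worms and 68.5, 93.0 and 67.5 in control worms. The sucrose libraries of ugt-62 spread over more than the control range. The most abundant member of the groups given sucrose was called in the interaction only. For this member, ugt-44 (chromosome IV, 10469741 to 10471899), FPKM was 87.4, 89.1 and 154 in sucrose worms, 105, 89.2 and 87.5 in stearic acid worms, 92.0, 83.5 and 72.7 in sucrose-stearic acid worms, 85.9, 74.5 and 111 in resveratrol worms and 66.0, 75.2 and 60.8 in control worms, and sucrose replicate 3 stood apart.

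Counts and FPKM disagreed in direction for ugt-12 (chromosome V, 4887165 to 4889629). Its FPKM was 44.1, 71.3 and 134 in sucrose worms, against 52.5, 66.2 and 69.1 in control worms, while its counts were 665, 630 and 735 in sucrose worms, against 1144, 1359 and 1269 in control worms. The count-based log2 fold change was -0.88 (SE 0.13, adjusted p = 0.00148), under the fold minimum, and the log2 ratio of mean FPKM was 0.41. In ugt-54 the log2 ratio of mean FPKM was 1.78 with sucrose and the count-based value -0.26 (adjusted p = 0.324). The levels of these 2 genes are therefore uncertain, and neither was called.

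The genes that supply UDP-sugars, regulate detoxification or export its products were described beside the family. Of 4 UDP-sugar supply genes found (the dehydrogenase sqv-4, the transporter sqv-7, and D1005.2 and R05F9.6), 0 were called in any of the 8 tests. In edgeR's test 0 to 2 of 4 had an unadjusted p of 0.05 or less. At an adjusted p of 0.05 or less it was 1 with stearic acid against control. It was 2 in sucrose and 2 in sucrose-stearic acid against stearic acid worms, all under 2-fold. Of 12 detoxification regulators 0 were called against control in the sucrose, stearic acid or sucrose-stearic acid comparison. In edgeR's test 4 in sucrose, 8 in stearic acid and 2 in sucrose-stearic acid worms had an unadjusted p of 0.05 or less. At an adjusted p of 0.05 or less, with changes under 2-fold, it was 2, 5 and 2. Of all genes this was 2346 of 12745 with sucrose, 22.6% with stearic acid and 19.9% with sucrose-stearic acid. The oxidative stress factor skn-1 was called lower in sucrose against stearic acid worms (-1.11, SE 0.09) and in sucrose-stearic acid against stearic acid worms (-1.23, SE 0.09). In the interaction 5 of 12 regulators were called, all below the sum, which were skn-1 (-0.61), the nuclear hormone receptors nhr-8 (-0.57) and nhr-28 (-0.95), the hypoxia factor hif-1 (-0.73) and pqm-1 (-0.87). Of 21 efflux pumps 8 were below the sum and 0 above it. The cytochrome P450 (cyp) family showed 20 of 63 below and 1 above, and the glutathione S-transferase family 6 of 38 below and 6 above. Of all genes tested, 8.59% were called below the sum and 7.05% above it.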

How the data were processed

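Whole-worm RNA was sequenced in 15 libraries. The authors removed rRNA, adapter and low-quality reads, mapped the rest to the WBcel235 assembly with TopHat and computed FPKM with Cufflinks. The deposited table also holds raw counts per gene, and how they were counted, with or without strand and with which rule for multiply matching reads, is not given in the sources used here. The authors' own fold changes and FDR values were not used. Libraries held 19433436 to 21400063 counts.

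Counts were tested with edgeR 4.0.16 in R 4.3.3 (filterByExpr, TMM, quasi-likelihood F-test, two-sided) on the libraries of each comparison, with Benjamini-Hochberg adjustment over all genes tested. Calls required an adjusted p of 0.05 or less and a 2-fold change, the interaction only the p. The study's methods name Cuffdiff, which needs the reads. Standard errors are the log2 fold change over the square root of F, and 95% intervals use edgeR's degrees of freedom. An exact permutation test of 3 against 3 libraries cannot go below p = 0.1 and was not used. The fit was run on simulated counts for sucrose against control and for the interaction only. All genes had the same simulated spread and all changes were above 2-fold, so the run does not cover calls near the thresholds. Alternatives were other size factors, no filter, DESeq2 1.42.0, limma 3.58.1 on log2(FPKM + 1) and log2(FPKM + 0.1), other thresholds, all libraries in 1 fit, a replicate block and each library left out.

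Same-numbered libraries deviated together in all 3 pairs only between sucrose-stearic acid and control worms (correlations of 0.153 to 0.410), from the data and not from any label. Differently numbered pairs of these 2 groups ran from -0.335 to 0.255, and sucrose replicate 1 with control replicate 3 gave 0.370. Whether the numbers mark a shared batch was not tested. With the replicate block 23 members were called in sucrose-stearic acid against control worms, against 22 without it.

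Values in every library are given for up to 6 called members of largest change in each comparison with control and in the interaction, for members past an unadjusted p of 0.05 and 2-fold with resveratrol, and for some of the 10 most abundant in control worms, and every called member is named. The values of ugt-29 with sucrose, and those of ugt-31, ugt-20 and ugt-19 between the single diets, were added after they were seen. The members and gene lists were chosen with earlier results of these data known.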

Additional observations from a re-analysis of the deposited data

Results flagged for a closer look

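The change with sucrose and stearic acid together departed from the 2 single log2 changes added together in 18 members by edgeR's quasi-likelihood test of the interaction, all below the sum. The values were -2.60 for ugt-36, -2.34 for ugt-33, -2.24 for ugt-31, -2.03 for ugt-27 and -1.95 for ugt-32. They were -1.58 for ugt-18, -1.55 for ugt-51, -1.50 for ugt-19, -1.47 for ugt-20 and -1.36 for ugt-43. They were -1.20 for ugt-17, -1.16 for ugt-21, -1.14 for ugt-2, -0.86 for ugt-44, -0.83 for ugt-41, -0.75 for ugt-39, -0.68 for ugt-48 and -0.68 for ugt-29. The call was lost for ugt-19 without sucrose-stearic acid replicate 1 or 2, for ugt-29 without sucrose-stearic acid replicate 1, and for ugt-43 without control replicate 2, stearic acid replicate 2 or sucrose-stearic acid replicate 3. No sample was singled out within a group, since groups of 3 are too small for such a test.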

How the results depend on the processing

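Alternatives of single members were run for 107 results, nearly all of them calls. Of their 1499 values 0 reversed, 111 lost the call and 4 gained it, and 83 of the 107 kept their side of the threshold throughout. Among members not called, the sucrose changes of ugt-12 and ugt-54 are negative by counts and positive by mean FPKM. The count with resveratrol was the least stable. Its 1 call became 2 with no filter on low counts, 4 with DESeq2, 3 with all 15 libraries in 1 fit, and 0 at an adjusted p of 0.01, with the replicate block, and with limma on log2(FPKM + 1) or log2(FPKM + 0.1), and it was 0 to 1 when a library was left out. The adjusted p of ugt-41 there ran from 7.98e-16 to 0.203. Without the fold minimum the calls were 26 for stearic acid against control, 30 for sucrose against stearic acid and 41 for sucrose-stearic acid against stearic acid. For sucrose-stearic acid against sucrose, DESeq2 called 1 and leaving out a library gave 0 to 2, with 2 without sucrose replicate 3. The interaction kept 9 calls at an adjusted p of 0.01 and 12 to 20 when a library was left out. Against control, leaving out a library gave 16 to 21 calls in sucrose worms, 11 to 14 in stearic acid worms and 20 to 25 in sucrose-stearic acid worms, and it gave 16 to 17 for sucrose and 15 to 18 for sucrose-stearic acid against stearic acid. Outside sucrose-stearic acid against control, the replicate block gave 21 calls for sucrose and 13 for stearic acid against control. It gave 17 for sucrose against stearic acid and 0 for sucrose-stearic acid against sucrose. The number was 16 for sucrose-stearic acid against stearic acid and 16 for the interaction. With 3 libraries a group, small differences could not be detected.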

Other observations

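Outside the family, cytochrome P450 genes were called in both directions. In sucrose against control worms 7 of 57 were higher and 12 lower, in stearic acid worms 12 of 57 were higher and 4 lower, and in sucrose-stearic acid worms 9 of 60 were higher and 15 lower. Of all genes tested, 3.78% were called higher and 5.4% lower with sucrose, and 3.41% and 4.48% with stearic acid. With sucrose-stearic acid these shares were 4.31% and 5.26%. Glutathione S-transferase genes were more even, with 7 of 38 higher and 6 lower with sucrose, 6 higher and 5 lower with stearic acid, and 8 higher and 6 lower with sucrose-stearic acid. Of 21 efflux pumps, 1 was called lower with sucrose (4.76%) and 2 with sucrose-stearic acid (9.52%), beside 5.4% and 5.26% of all genes. Against stearic acid worms, 4 were lower in sucrose (19%) and 6 in sucrose-stearic acid worms (28.6%), beside 5.29% and 6.2%. In ugt-32 the count-based log2 fold change with sucrose was 0.88, while the log2 ratio of mean FPKM was 0.18.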
